A study of Mus musculus with 16 samples.

Results

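Recycling of methylthioadenosine, the by-product of polyamine synthesis, and supply of S-adenosylmethionine were followed through 7 mouse genes, Mtap, Mri1, Apip, Enoph1, Adi1, Mat2a and Mat2b. They were taken as a named set and matched by symbol to the Ensembl identifiers of a table of 32989 identifiers. All 7 were present, and all 7 were among the 19049 genes whose mean count reached 5, the minimum for testing. RNA was measured by 3′ RNA-seq with unique molecular identifiers (UMIs), in which each distinct tag of a gene stands for 1 captured molecule. Where genes overlap or are near-identical, the same molecule may be counted under more than 1 of them. The 16 libraries came from hair follicle stem cell (HFSC) organoids, 3D–3C cultures of skin cells from 4 C57BL/6J mice, grown for 2 weeks and sorted on α6 integrin and CD34. The 4 groups of 4 libraries were α6+/CD34− progenitors and α6+/CD34+ HFSCs from untreated cultures (labelled WT and control), and the same sorted fractions after 72 h with N1-acetylspermidine (N1-AcSpd), an acetylated form of spermidine. The labels give no age of the mice. Each mouse gave 1 library to each of the 4 groups. All cells had been cultured, so the groups model organoids and not skin.

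Cells make S-adenosylmethionine, the common methyl donor, from methionine and ATP. Methionine adenosyltransferase 2 does this in most tissues outside the liver, with a catalytic subunit encoded by Mat2a and a regulatory subunit encoded by Mat2b. Polyamine synthesis uses decarboxylated S-adenosylmethionine to build spermidine and spermine, and each such step releases methylthioadenosine. The salvage pathway returns the methylthio group to methionine. MTAP splits methylthioadenosine into adenine and a sugar phosphate, MRI1 isomerises that sugar, APIP removes water from it, ENOPH1 acts as an enolase and phosphatase, and ADI1, a dioxygenase, forms the keto acid that transaminases turn into methionine.

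Library totals ran from 15480075 to 29074855 UMIs. The N1-AcSpd CD34− group was the deepest, with at least 25202264, above all untreated CD34− libraries (at most 24451336). Mitochondrial genes took 0.938% to 1.043% of counts in N1-AcSpd CD34−, 1.055% to 1.156% in untreated CD34− and 1.23% to 1.45% in CD34+ libraries. Counts of the 7 genes lay between 104 (Enoph1, untreated CD34+ cells, mouse 1) and 1392 (Mat2a, N1-AcSpd CD34− cells, mouse 2). Counting error alone gives an SD of 9.81% at the former count and of 3.04% at 1081, the lowest Mat2a count of its group. The sort was visible in the RNA. Cd34 was at 2.87 to 3.65 CPM (counts scaled to a common total, from TMM-scaled library sizes) in the CD34− libraries and at 43.4 to 64.0 CPM in the CD34+ libraries. Of 8 HFSC markers, 5 were called higher in CD34+ cells and 1, Itga6, lower (log2 difference -0.34 in untreated and -0.17 in N1-AcSpd cells). All 7 differentiated keratinocyte markers were called lower and all 8 genes of a dividing cell list higher in CD34+ cells, in both conditions. The summed level of the dividing cell list was 239 to 268 CPM in untreated CD34− cells, 320 to 372 CPM in untreated CD34+ cells, 223 to 273 CPM in N1-AcSpd CD34− cells and 362 to 423 CPM in N1-AcSpd CD34+ cells. That of the keratinocyte list was 1027 to 1562 CPM in the CD34− and 295 to 399 CPM in the CD34+ libraries. In such bulk libraries, fewer cells of a type and less RNA per cell cannot be told apart. Summed levels reached at most 1.52 CPM for 6 fibroblast markers and 4.99 CPM for 6 immune cell markers, with Tyrobp without a UMI in any library. The melanocyte list summed to 9.38 to 12.6 CPM, nearly all of it Pmel, whose annotated span overlaps other genes. Among endothelial markers Cdh5 had no UMI, Kdr at most 0.36 CPM and Tek at most 0.27 CPM, while Pecam1 stood at 1686 to 2054 CPM. With the other markers of its list so low, Pecam1 is not read here as a sign of endothelial cells. The source of its counts was not tested.

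Genes are given here by their place in the annotation (GENCODE, build GRCm38). Mtap (ENSMUSG00000062937) lies at chr4:89137122-89181081 on the plus strand, Mri1 (ENSMUSG00000004996) at chr8:84249906-84257326 on the minus strand and Apip (ENSMUSG00000010911) at chr2:103073675-103092644 on the plus strand. Enoph1 (ENSMUSG00000029326) lies at chr5:100039985-100068760 and Adi1 (ENSMUSG00000020629) at chr12:28675231-28682175, both on the plus strand. Mat2a (ENSMUSG00000053907) lies at chr6:72432799-72439558 and Mat2b (ENSMUSG00000042032) at chr11:40679314-40695203, both on the minus strand. Mat2a overlaps Particl, a gene model on the opposite strand around its start, which held 10 to 29 counts per library and at most 3.96% of the Mat2a count. The pseudogene Gm12607, inside Mtap, held at most 1.73% of the Mtap count. Mat2a was the only one of the 7 whose last 500 transcript bases had a near-identical copy elsewhere. The processed pseudogene Gm9523, such a copy, held 0 to 3 counts. The long gene model 6030443J06Rik, which spans that pseudogene, held 668 to 33548 counts per library. Once those of Rpl17-ps5 and Gm6560, which lie inside it, were taken off, 18 to 128 were left. This step takes all counts of Rpl17-ps5 and Gm6560 as also counted in the long model, which was not tested. How the counting shared reads between Mat2a and these copies was not tested.

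Upstream sequence is shown for Apip and Mat2a, the genes whose levels differed most between N1-AcSpd and untreated cells. The 250 bases before the RefSeq start (GRCm38.p6) are printed 5′ to 3′ on the gene's strand, with capitals for matches, on either strand, to the CCAAT box (CCAAT), the GC box (GGGCGG) and the TATA box (TATAAA).
Apip, chr2:103073425-103073674, plus strand: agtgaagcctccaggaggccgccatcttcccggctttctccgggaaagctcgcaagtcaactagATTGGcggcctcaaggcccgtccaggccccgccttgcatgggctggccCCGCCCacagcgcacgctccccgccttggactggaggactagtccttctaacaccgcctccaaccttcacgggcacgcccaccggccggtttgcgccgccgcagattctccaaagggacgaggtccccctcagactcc
Mat2a, chr6:72439557-72439806, minus strand: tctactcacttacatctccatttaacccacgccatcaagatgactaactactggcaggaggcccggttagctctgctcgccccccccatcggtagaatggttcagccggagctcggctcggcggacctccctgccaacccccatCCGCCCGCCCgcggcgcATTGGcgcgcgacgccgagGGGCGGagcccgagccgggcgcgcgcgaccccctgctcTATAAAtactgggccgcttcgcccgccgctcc

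The Apip window held 1 CCAAT match, 186 to 182 bases before the start, and 1 GC box match, and no TATAAA. The Mat2a window held TATAAA 32 to 27 bases before the start, 1 CCAAT match and 3 GC box matches, of which 2 overlap. Of 32851 upstream windows of this length, 12.4% held TATAAA, 33.8% CCAAT and 32.7% GGGCGG. A table entry was found for 6 of the 7 genes, Adi1 being the other, and Mat2a was the only one of these 6 with TATAAA. None of the 6 windows held CACGTG (E-box, in 6.02% of all windows) or TGACGTCA (cAMP response element, in 1.55%). These are matches of letters and not measured binding sites.

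The first comparison asked how HFSCs differed from progenitors. Apip and Mat2b were higher in CD34+ than in CD34− cells, in untreated and in N1-AcSpd cultures alike, by 1.45-fold and 1.71-fold for Apip and by 1.35-fold and 1.36-fold for Mat2b. The other 5 genes did not pass the test in either condition. Thus 2 of the 7 genes were called higher in untreated and 2 in N1-AcSpd cells, where 16.1% and 16.5% of all genes tested were called higher. None of the 7 was called lower, against 16.1% and 16.8% of all genes, and at an unadjusted p under 0.05 there were 3 of the 7 in untreated and 5 in N1-AcSpd cells in either direction, where 40.6% and 41.8% of all genes had one. DESeq2 called Mtap lower in both, where it called 5934 and 6227 genes in either direction. The median log2 difference of the 7 genes was 0.00059 in untreated cells, where it was 0.022 over all genes tested, and -0.16 in N1-AcSpd cells, where it was -0.0068 over all genes. For some genes below, groups without overlap or a shared direction in all mice are described. How many of all genes tested show the same was not counted, so these descriptions add nothing to the tests.

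**Figure D1:**
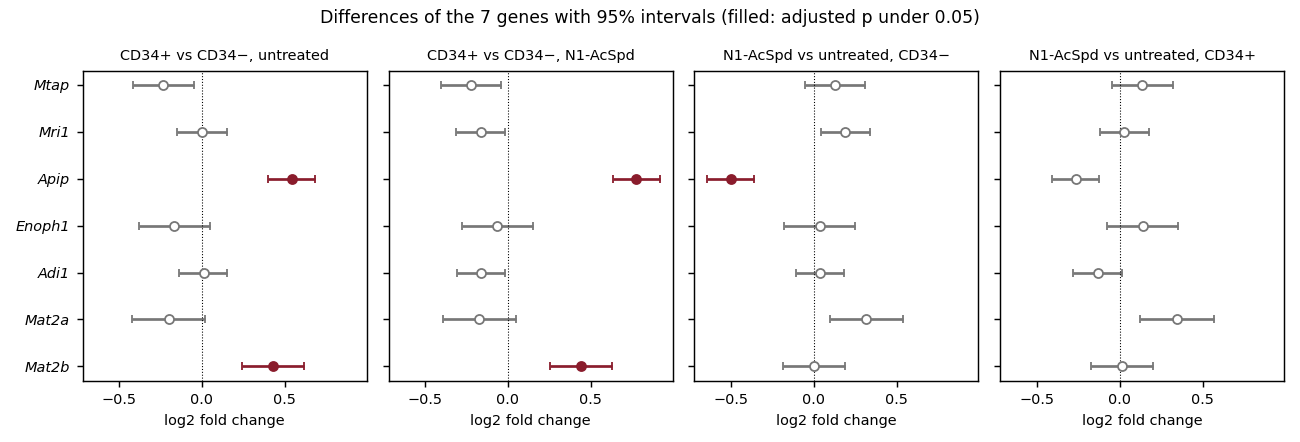
Log2 fold changes of the 7 genes in the 4 comparisons, with 95% intervals from the edgeR fit of all 16 libraries. Filled points passed an adjusted p of 0.05: Apip and Mat2b in both cell type comparisons (first and second panel) and Apip under treatment in CD34− cells (the third panel).

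Of the salvage enzymes, Apip, the dehydratase, differed most. In untreated CD34− cells of mice 1 to 4 it was at 14.9, 14.7, 13.5 and 12.2 CPM, and in untreated CD34+ cells at 20.2, 21.2, 18.6 and 20.4 CPM. In N1-AcSpd cultures the CD34− libraries held 9.20, 10.004, 10.2 and 9.72 CPM and the CD34+ libraries 16.4, 16.0, 16.6 and 18.0 CPM. All 4 groups were separate from each other, in the order N1-AcSpd CD34−, untreated CD34−, N1-AcSpd CD34+ and untreated CD34+. The mean was 13.8 ± 1.26 CPM (SD, n = 4) in untreated CD34− cells and 20.1 ± 1.10 CPM in untreated CD34+ cells, a log2 difference of 0.54 (SE 0.0653, edgeR adjusted p = 2.94e-05). With N1-AcSpd the means were 9.79 ± 0.443 and 16.7 ± 0.856 CPM, a log2 difference of 0.77 (SE 0.0656, adjusted p = 1.35e-06). Apip was higher in the CD34+ cells of 4 of 4 mice in each condition, by 0.44 to 0.74 on the log2 scale in untreated and by 0.67 to 0.88 in N1-AcSpd cells. The dividing cell list and the mitochondrial share were higher, and the keratinocyte list lower, in the same libraries, and their part in this difference was not tested.

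**Figure D2:**
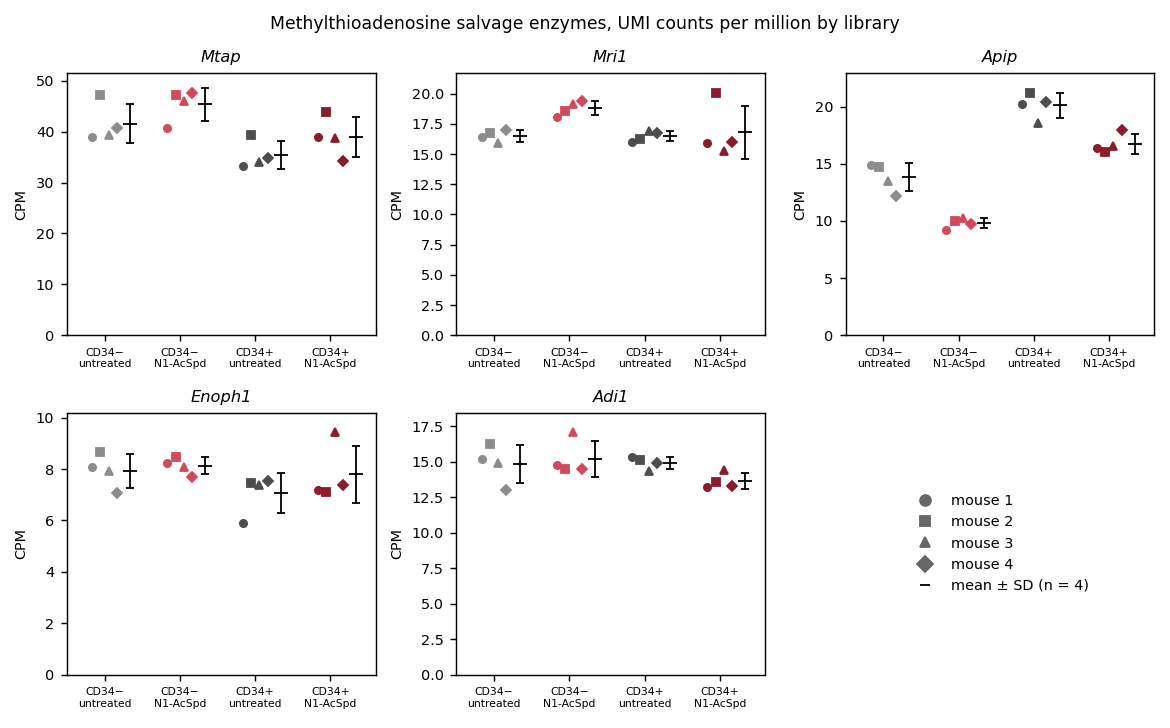
Levels of the 5 salvage enzymes in CPM, 1 point per library with 1 symbol per mouse and the mean ± SD of each group of 4 beside it. For Apip the 4 groups do not overlap, while for Mri1, Enoph1 and Adi1 most libraries share 1 band.

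Mtap encodes the phosphorylase that opens the pathway. Its levels in mice 1 to 4 were 38.9, 47.2, 39.4 and 40.8 CPM in untreated CD34− cells and 33.3, 39.4, 34.1 and 34.8 CPM in untreated CD34+ cells. The N1-AcSpd libraries held 40.7, 47.3, 46.0 and 47.7 CPM for CD34− and 39.0, 43.9, 38.7 and 34.2 CPM for CD34+. Groups overlapped, but within each mouse the CD34+ library was the lower one, in 4 of 4 mice in both conditions. In untreated cells these differences were alike, from -0.26 to -0.21 on the log2 scale, and with N1-AcSpd they ran from -0.48 to -0.060. The log2 difference was -0.23 (SE 0.0848, adjusted p = 0.0512) in untreated and -0.22 (SE 0.0847, adjusted p = 0.0593) in N1-AcSpd cells, and neither was called. With mouse as a replicate block both were (adjusted p = 0.0103 and 0.0112). Mtap in untreated cells also passed with DESeq2 size factors (adjusted p = 0.0356) and with edgeR's own low-count filter (adjusted p = 0.0496). Scaled by library totals, a setting that raises the median of all genes by 0.115 and 0.116, it was at -0.12 (adjusted p = 0.336) in untreated and -0.11 (adjusted p = 0.403) in N1-AcSpd cells. Of 20 runs without a mouse or a library, 6 called it in untreated and 5 in N1-AcSpd cells, with adjusted p from 0.0252 to 0.168 and from 0.018 to 0.36. Some of these calls came from leaving out a library of a group not compared, which changes the spread shared by the fit. Of 4 listed neighbours on the chromosome only Cdkn2b was high enough to test, a cell cycle inhibitor gene that lies beyond Cdkn2a and is often lost together with MTAP in tumours. It was lower in CD34+ cells, with log2 differences of -1.02 and -1.06 (adjusted p = 0.000392 and 0.00027).

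The remaining salvage enzymes were not called between the sorted fractions in the fit of all 16 libraries. Mri1, the isomerase, was at 15.9 to 17.0 CPM in untreated CD34− and 16.0 to 16.9 CPM in untreated CD34+ cells, with a difference of 0.00059 on the log2 scale (95% interval -0.147 to 0.149). In both untreated groups its libraries varied by 2.83% and 2.44% (coefficient of variation), less than the 6.18% and 5.96% that counting alone gives at the lowest count of each group. In N1-AcSpd cells its log2 difference was -0.16 (interval -0.31 to -0.0146, adjusted p = 0.0877). That value was -0.26 (adjusted p = 0.000227) once mouse 2 was taken out of the N1-AcSpd CD34+ group, a library that stood apart from the others of its group. Enoph1 had the lowest counts of the 7 genes, 104 to 239 per library. Its log2 differences were -0.17 (interval -0.381 to 0.0491) and -0.064 (interval -0.277 to 0.15). Adi1, the dioxygenase, was at 13.03 to 16.2 CPM in untreated CD34− and 14.4 to 15.4 CPM in untreated CD34+ cells, a log2 difference of 0.0096 (interval -0.135 to 0.154). With N1-AcSpd the CD34− libraries held 14.5 to 17.1 CPM and the CD34+ libraries 13.2 to 14.4 CPM. Those groups did not overlap, and Adi1 was lower in the CD34+ cells of 4 of 4 mice, by a log2 difference of -0.16 that did not pass (interval -0.304 to -0.0152, adjusted p = 0.0858). It passed without the untreated CD34− library of mouse 4 (-0.16, adjusted p = 0.0432). That library is in neither compared group, so the value hardly moved while the SE fell from 0.0671 to 0.0559.

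Of the subunits of methionine adenosyltransferase 2, Mat2b was higher in HFSCs and Mat2a was not called. Mat2b, the regulatory subunit, was at 15.7, 15.8, 13.7 and 16.7 CPM in untreated CD34− cells of mice 1 to 4 and at 19.2, 21.4, 18.9 and 23.7 CPM in untreated CD34+ cells. With N1-AcSpd the CD34− libraries held 13.8, 16.6, 14.9 and 16.6 CPM and the CD34+ libraries 19.1, 21.4, 20.98 and 22.4 CPM. Each CD34+ library was above all CD34− libraries. The log2 difference was 0.43 (SE 0.0875, edgeR adjusted p = 0.00195) in untreated and 0.44 (SE 0.0874, adjusted p = 0.00137) in N1-AcSpd cells, higher in 4 of 4 mice in each.

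Mat2a, the catalytic subunit, was at 43.8, 38.4, 38.3 and 37.5 CPM in untreated CD34− cells and at 34.5, 35.0, 37.5 and 30.5 CPM in untreated CD34+ cells. These groups did not overlap, but the closest libraries, mouse 3 of the CD34+ and mouse 4 of the CD34− group, were nearly level. The log2 difference was -0.20 (SE 0.103, interval -0.421 to 0.0197, adjusted p = 0.162), in the same direction in 4 of 4 mice. It was called only with mouse as a replicate block (adjusted p = 0.0357) or once mouse 4 was taken out of the N1-AcSpd CD34+ group (adjusted p = 0.0494). That group is not part of this comparison, so the value stayed at -0.20 while the SE fell to 0.0722. In N1-AcSpd cells the log2 difference was -0.17 (interval -0.393 to 0.0476, adjusted p = 0.229), again lower in 4 of 4 mice. With library totals these values were -0.087 and -0.056.

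The ratio of Mat2a to Mat2b counts within a library needs no scaling between libraries. It was 2.78, 2.44, 2.80 and 2.25 in untreated CD34− cells of mice 1 to 4 and 1.79, 1.64, 1.99 and 1.28 in untreated CD34+ cells. With N1-AcSpd it was 3.65, 2.97, 3.53 and 2.68 in CD34− and 2.45, 2.08, 2.34 and 1.51 in CD34+ cells. Mouse 4 had the lowest ratio in all 4 groups. HFSCs had the lower ratio in 4 of 4 mice in both conditions, with no overlap between the fractions, and the mean log2 ratio was 0.73 ± 0.27 (SD) against 1.35 ± 0.154 in untreated and 1.04 ± 0.313 against 1.67 ± 0.212 in N1-AcSpd cells. Both differences were -0.63, with p = 0.0286 by a two-sided exact permutation test over 4 against 4 libraries. This is the smallest p that 70 permutations can give. Adjusted over the 4 comparisons of this ratio it was 0.0572, so the design could not reach 0.05 for a pair of such results. A sign-flip test over 4 mice cannot go below 0.125.

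**Figure D3:**
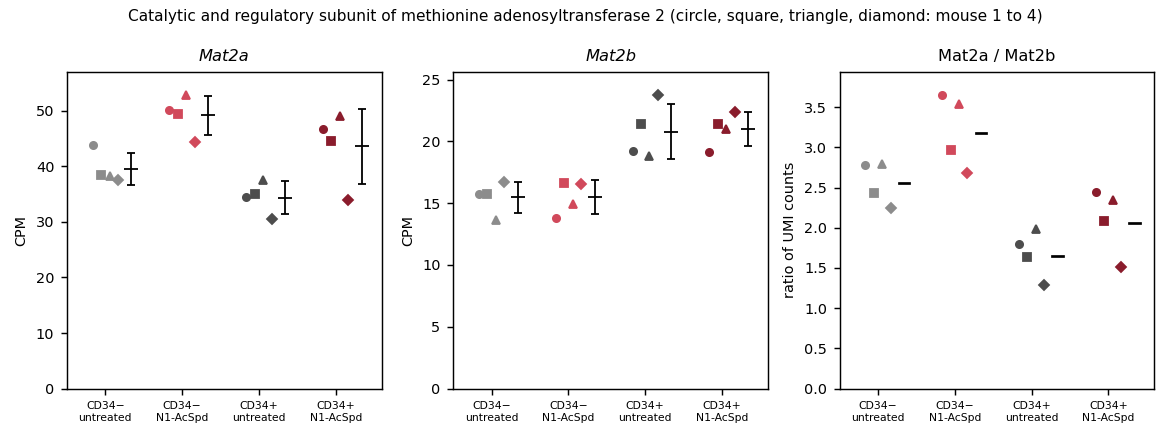
Mat2a and Mat2b in CPM with the mean ± SD of each group of 4, and their ratio per library with the geometric mean of each group as a bar. Mat2b is higher and the ratio lower in every CD34+ library than in the CD34− libraries of the same condition, and Mat2a is higher with N1-AcSpd in each mouse.

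The second comparison asked what N1-AcSpd changed within each sorted fraction. In CD34− cells Apip fell to 0.71 of its untreated level, and it was the only one of the 7 genes called, where 0.614% of all genes tested (117) were called. In CD34+ cells none of the 7 was called by edgeR, where 0.325% of all genes (62) were. There 2 genes, Apip and Mat2a, had an unadjusted p under 0.05, as did 13.2% of all genes, and DESeq2 called both among 423 genes in all. The median log2 difference of the 7 genes was 0.036 in CD34− and 0.027 in CD34+ cells, beside 0.00012 and -0.014 over all genes tested. Both cell type comparisons and both treatment comparisons draw on the same 4 groups, so their values for a gene are not independent.

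Apip was lower with N1-AcSpd in every mouse and in both fractions. In CD34− cells, whose values are given above, all 4 treated libraries were below all 4 untreated ones, and the log2 difference was -0.50 (SE 0.0654, edgeR adjusted p = 0.00597), with values of -0.69, -0.56, -0.40 and -0.33 within mice 1 to 4. It ranked 9 by p among all genes tested. The treated CD34− libraries were also the deeper ones and had the lower mitochondrial shares. With all libraries thinned to the smallest total the difference was -0.54 (adjusted p = 0.0124), and the part of the mitochondrial share was not tested. The call was lost when only the libraries of the compared groups entered the fit (adjusted p = 0.0874) and without all libraries of mouse 1 (-0.43, adjusted p = 0.117), mouse 2 (-0.48, adjusted p = 0.114) or mouse 3 (-0.53, adjusted p = 0.054). In CD34+ cells the groups did not overlap either, and the log2 difference was -0.27 (SE 0.0651, interval -0.406 to -0.126). It did not pass in edgeR (adjusted p = 0.106) and passed in DESeq2 (-0.25, adjusted p = 0.0332). The effects in the 2 fractions differed by 0.23 on the log2 scale (edgeR adjusted p = 1), so no difference between fractions was called.

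**Figure D4:**
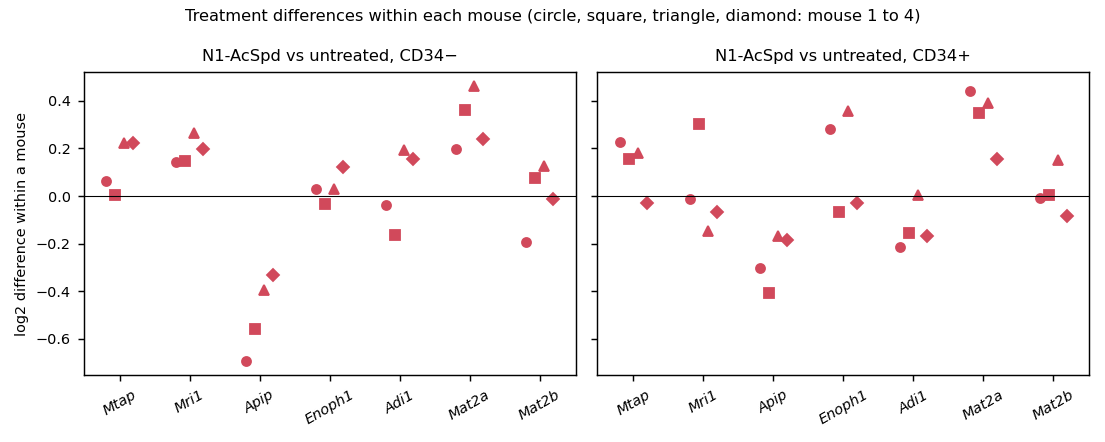
Log2 difference between the N1-AcSpd and the untreated library of each mouse for the 7 genes, in CD34− (left) and CD34+ cells (right), 1 symbol per mouse. Apip lies below 0 and Mat2a above 0 in all 4 mice of both panels. Mtap and Mri1 lie above 0 in all 4 mice of the left panel, Mtap of mouse 2 by only 0.0033.

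Mat2a was higher with N1-AcSpd in 4 of 4 mice in both fractions. In CD34− cells the treated libraries held 50.2, 49.4, 52.8 and 44.3 CPM, all above the untreated libraries, which reached 43.8 CPM in mouse 1. In CD34+ cells they held 46.8, 44.7, 49.1 and 33.9 CPM, of which mouse 4 lay within the untreated range of 30.5 to 37.5 CPM. The log2 difference was 0.32 in CD34− cells (SE 0.102, interval 0.096 to 0.537, adjusted p = 0.182) and 0.34 in CD34+ cells (SE 0.103, interval 0.124 to 0.565, adjusted p = 0.179), and neither was called. With mouse as a replicate block the former passed (0.31, adjusted p = 0.0448), and the latter passed in DESeq2 (0.36, adjusted p = 0.0294) and in edgeR once mouse 4 was taken out of the N1-AcSpd CD34+ group (0.45, adjusted p = 0.041). Mouse 4 had the smallest difference in CD34+ cells (0.16), so that last run leaves out the weakest value. Mat2b gave log2 differences of 0.0013 (interval -0.187 to 0.189) and 0.013 (interval -0.175 to 0.201). The Mat2a to Mat2b ratio was higher with N1-AcSpd in 4 of 4 mice in each fraction, by 0.32 in the log2 ratio in both, and the exact permutation test gave p = 0.0857 (adjusted 0.114) in CD34− and p = 0.2 (adjusted 0.2) in CD34+ cells.

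Mri1 was at 18.1 to 19.4 CPM in N1-AcSpd CD34− cells, above all untreated libraries of that fraction. The log2 difference of 0.19 (interval 0.0419 to 0.337, adjusted p = 0.237) was positive in 4 of 4 mice. It passed only once mouse 2 was taken out of the N1-AcSpd CD34+ group (0.19, adjusted p = 0.0459). That library is in neither compared group. The value stayed the same, and only the spread shared by the fit shrank (SE from 0.0687 to 0.0351). In CD34+ cells the log2 difference was 0.027 (interval -0.121 to 0.175). Mtap gave 0.13 (interval -0.0547 to 0.309) in CD34− and 0.14 (interval -0.0455 to 0.319) in CD34+ cells. For Enoph1 the differences were 0.035 (interval -0.178 to 0.249) and 0.14 (interval -0.0778 to 0.353), and for Adi1 0.036 (interval -0.108 to 0.18) and -0.13 (interval -0.278 to 0.0119). None of these passed the test.

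Whether the cell type difference itself depended on N1-AcSpd was tested as an interaction. No gene of the 19049 was called by edgeR (0%), with 799 at an unadjusted p under 0.05 and 72 called by DESeq2. Of the 7 genes none was called by either tool, and Apip alone had an unadjusted p under 0.05.

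Genes around the salvage pathway were read from lists given in the same order as the chemistry. Beside the counts below, 16.1% of all genes tested were called higher and 16.1% lower in untreated CD34+ cells. In N1-AcSpd cells these shares were 16.5% and 16.8%. Under treatment 0.614% of all genes were called in CD34− and 0.325% in CD34+ cells. Whether any list differed from these shares was not tested. Of the 5 polyamine synthesis genes, 3 were lower in CD34+ cells in both conditions and none was higher. Srm, spermidine synthase, which releases methylthioadenosine, differed by -0.51 and -0.46 on the log2 scale (adjusted p = 0.000113 and 0.000216). Odc1, ornithine decarboxylase, differed by -0.57 and -0.48 (adjusted p = 0.000343 and 0.000984), and Sms, spermine synthase, by -0.26 and -0.27 (adjusted p = 0.0186 and 0.0135). The other 2, Amd1 and Amd2, stand for S-adenosylmethionine decarboxylase. They were lower with N1-AcSpd in CD34− cells, by -0.31 (adjusted p = 0.042) and -0.30 (adjusted p = 0.0429), but they are near-identical copies whose reads may be shared, so these count as 1 uncertain result. No polyamine synthesis gene was called in CD34+ cells under treatment. There Amd1 and Amd2 changed in the same direction, by -0.27 (adjusted p = 0.0932) and -0.25 (adjusted p = 0.104). No difference between the fractions in this change was called.

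Adenine released by MTAP is reused by the phosphoribosyltransferase encoded by Aprt. Aprt was lower in CD34+ cells by -0.46 (adjusted p = 7.45e-07) in untreated and -0.58 (adjusted p = 1.22e-07) in N1-AcSpd cells. With N1-AcSpd it was higher in CD34− cells by 0.25 (adjusted p = 0.00784), and in CD34+ cells by 0.13, which was not called (adjusted p = 0.136). Its span overlaps other gene models, so reads may be shared. Prmt5, an arginine methyltransferase that methylthioadenosine inhibits, was lower in CD34+ cells with N1-AcSpd (-0.20, adjusted p = 0.0342). In untreated cells its difference was -0.14 and not called (adjusted p = 0.147). Wdr77, the partner of Prmt5, was lower in both conditions (-0.29 and -0.22, adjusted p = 0.00774 and 0.0348). Of these 3 genes none besides Aprt was called under treatment.

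For the last salvage step, 5 of 6 listed genes were tested, 4 of them transaminases and the other Il4i1, an amino acid oxidase. Tat had no UMI in any group. Kyat3 was higher in CD34+ cells by 0.30 and 0.26 (adjusted p = 0.00565 and 0.00784), while Got2 was lower by -0.15 and -0.14 (adjusted p = 0.0103 and 0.0117). Kyat1 was called lower in CD34+ than in CD34− cells of the N1-AcSpd cultures, by -0.79 (adjusted p = 0.000237). In untreated cultures this difference was -0.20 (adjusted p = 0.255). None of the 5 was called under treatment in either fraction.

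Of 12 methionine cycle genes 11 were tested, and Mat1a, the liver form of the catalytic subunit, had no UMI. In untreated cells 3 were higher and 2 lower in CD34+ cells, and in N1-AcSpd cells 2 were higher and 1 lower. Gnmt, a glycine methyltransferase that consumes S-adenosylmethionine, differed by 1.05 and 1.16 (adjusted p = 0.00601 and 0.00249) at low counts of 10 to 45 per library. Cbs, which draws homocysteine away from the cycle, differed by 0.83 and 0.80 (adjusted p = 0.00222 and 0.00231), and Mtrr, the reductase that keeps methionine synthase active, by -0.29 and -0.30 (adjusted p = 0.0281 and 0.0107). No methionine cycle gene was called under treatment in either fraction.

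Mettl16, Ythdc1, Mettl3 and Mettl14, of which METTL16 and YTHDC1 are known to act on MAT2A mRNA, were not called under treatment. Between the fractions 1 of the 4, Mettl3, was called, higher in CD34+ cells with N1-AcSpd (0.29, adjusted p = 0.00781). In untreated cells its difference was 0.16 and not called (adjusted p = 0.146). Among 5 transporters of methionine and S-adenosylmethionine, 4 were tested and 1 was called. That was Slc3a2, the heavy chain shared by several amino acid carriers, which was higher in CD34+ cells by 0.41 and 0.39 (adjusted p = 0.00171 and 0.00201).

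The 7 genes did not vary as 1 set over the 16 libraries. Among their 21 pairs Pearson's r of log2 CPM was highest for Apip with Mat2b (0.77) and lowest for Apip with Mtap (-0.73) and Apip with Mat2a (-0.71). Once group means were taken off, these values were 0.28, 0.12 and -0.16. They describe libraries that share mice and groups. Compared in the same way with 9419 genes of a mean count of at least 50, Apip was most like Hmgn1 (r = 0.97) and Ccni (0.97), values that were 0.67 and 0.52 once group means were taken off. Mat2b was most like Slc6a6 (0.97) and Trim59 (0.97), with 0.86 for both after that step. The nearest patterns to Mtap were those of Hspa8 (0.95) and Ppid (0.95), heat shock protein and chaperone genes, with 0.90 and 0.88 after removal of the group means. For Mat2a they were Farsb (0.89) and Ranbp1 (0.89), for Mri1 Abhd13 (0.82) and Tnfrsf10b (0.81), for Enoph1 Cipc (0.79) and Dnaja2 (0.77), and for Adi1 Arid5b (0.74) and Eno1b (0.71), and without group means these 8 values lay between 0.61 and 0.79.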

How the data were processed

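Sorted organoid cells were profiled by 3′ RNA-seq with UMIs. The authors demultiplexed reads with FLEXBAR, pseudo-aligned them to mm10 with Kallisto (0.45.0 in the submitters' processing notes), assigned tags with BEDTools and deposited unique UMI counts per gene, not normalized. The annotation release is not given in the sources used here. The 156050 empty cells were read as 0. Symbols came from GENCODE M21, which lacked 94 identifiers or gave them no symbol.

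Genes whose mean count reached 5 were tested in edgeR 4.0.16 (R 4.3.3) with TMM scaling and quasi-likelihood tests in 1 fit of 16 libraries, with Benjamini-Hochberg adjustment over all genes and calls at an adjusted p under 0.05. Intervals are 95% intervals, and tests were two-sided. DESeq2 1.42.0 (the study's tool), other scalings and filters, a fold rule of 0.5, thinning, only the compared groups, mouse as a replicate block, and runs without each library or mouse were alternatives. The labels' mouse entry pairs the libraries of 1 number. Deviations of libraries of the same mouse from their group means had a mean r of 0.01 (-0.0631 to 0.0809, 24 pairs). For libraries of different mice and groups it was -0.0033, so the pairing left almost no trace in these deviations. Libraries of 1 group always differed beyond sampling noise (chi-square per degree of freedom at least 26). All 7 members were named. Of context lists, called genes were named, or in lists over 6 genes the 3 with the smallest p, and for each member the 2 genes of the most similar pattern. Members and lists were chosen with earlier results of these data known. The edgeR procedure was run on simulated counts with known differences in the untreated CD34+ group and no mouse effect. The smallest of these was 0.5 on the log2 scale, so smaller differences were not covered. Counting errors cover counting only.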

Additional observations from a re-analysis of the deposited data

Results flagged for a closer look

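Each of the 7 genes was checked in each of the 4 groups for a library far from the other 3 (Dixon's test on the gap relative to the group's range). This found 5 libraries in 28 groups, where chance gives about 1 in 20. Mri1 was at 20.08 CPM in N1-AcSpd CD34+ cells of mouse 2, the highest of its group. Enoph1 was at 5.914 CPM in untreated CD34+ cells of mouse 1, the lowest of its group, and at 9.445 CPM in N1-AcSpd CD34+ cells of mouse 3, the highest. Adi1 was at 17.1 CPM in N1-AcSpd CD34− cells of mouse 3 and Mat2a at 43.76 CPM in untreated CD34− cells of mouse 1, each the highest of its group. What set these values apart was not tested.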

How the results depend on the processing

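Apip and Mat2b kept their calls between the sorted fractions in all 4 runs without a mouse, all 16 without a library and all alternatives but the fold rule (an absolute log2 difference over 0.5), which leaves Mat2b out. Where a call or a sign depended on a setting, the cause was not tested beyond what each setting itself changes. Counts of 104 to 1392 limit how small a difference can be seen.

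With the fold rule 1 of the 7 genes was called between fractions in untreated and 1 in N1-AcSpd cells (2913 and 3197 of all genes), 0 under treatment in CD34− cells (27 of all genes), and 19 of all genes in CD34+ cells. With DESeq2 the treatment comparisons gave 558 genes in CD34− and 423 in CD34+ cells, 2 of the 7 genes in CD34+ cells, and 72 genes for the interaction. Without a low-count filter 35 genes were called in each treatment comparison, and after thinning 48 in CD34− and 36 in CD34+ cells. With only the compared groups in the fit, edgeR called 0 genes under treatment in CD34− cells and so 0 of the 7 (2645 genes at an unadjusted p under 0.05), and 23 in CD34+ cells.

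The paired fit, with mouse as a replicate block, called 4 of the 7 genes between fractions in untreated cells, 3 in N1-AcSpd cells and 2 under treatment in CD34− cells. Over all genes it called 6483 and 6646 between fractions, 349 under treatment in CD34− and 152 in CD34+ cells. Apart from Mtap and Mat2a it changed no call of the 7 genes.

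Scaling by library totals brought the median of all genes between fractions to 0.137 in untreated and 0.109 in N1-AcSpd cells (0.0223 and -0.00681 with TMM, a move of 0.115 and 0.116) and called 4861 genes higher and 1762 lower in untreated cells (3059 and 3064 with TMM) and 4792 higher and 1904 lower in N1-AcSpd cells (3147 and 3199 with TMM). Relative to that median, Apip was at 0.517 and 0.781, Mat2b at 0.406 and 0.447, Mtap at -0.255 and -0.214 and Mat2a at -0.224 and -0.165. Enoph1 in N1-AcSpd cells took the other sign there (0.05371).

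Values near 0 changed sign. The fraction difference of Mri1 in untreated cells was -0.01939 with DESeq2 size factors, -0.005757 without a filter, -0.01796 in DESeq2, -0.01801 after thinning and -6.866e-05 with only the compared groups, and that of Adi1 -0.01065 with DESeq2 size factors and -0.005984 in DESeq2. The treatment difference of Mat2b in CD34− cells was -0.001924 without a filter, -0.0005845 with the replicate block and -0.002086 with only the compared groups. After thinning the interaction was -0.01356 for Mtap and -0.04692 for Mat2b.

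Runs without a mouse or a library called 2 to 4 of the 7 genes between fractions in each condition (4506 to 6210 of all genes in untreated and 4927 to 6369 in N1-AcSpd cells), 0 to 2 under treatment in CD34− and 0 to 1 in CD34+ cells. Over all genes they called 4 (without mouse 4) to 157 (without the N1-AcSpd CD34+ cells of mouse 3) under treatment in CD34−, 3 (without mouse 4) to 73 (without the untreated CD34+ cells of mouse 3) in CD34+ cells and 0 to 11 (without mouse 3) for the interaction. Signs turned within -0.03035 to 0.0139 for Mri1 and -0.04839 to 0.05406 for Adi1 between untreated fractions. Under treatment in CD34− cells they turned within -0.02464 to 0.1045 for Adi1, -0.01651 to 0.07976 for Enoph1 and -0.05358 to 0.06165 for Mat2b, and in CD34+ cells within -0.02817 to 0.09856 for Mat2b and -0.07633 to 0.08502 for Mri1. For the interaction the ranges were -0.002493 to 0.1855 for Enoph1, -0.04879 to 0.1315 for Mat2a, -0.04205 to 0.1076 for Mat2b and -0.05644 to 0.09246 for Mtap.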
